A study of Rattus norvegicus with 36 samples.

Results

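The genes described here are 10 genes of the extracellular matrix and its remodelling. They encode fibronectin (Fn1), osteopontin (Spp1), SPARC (Sparc), the SPARC relative SMOC2 (Smoc2), asporin (Aspn), lysyl oxidase (Lox), the gelatinase MMP2 (Mmp2) and the metalloproteinase inhibitors TIMP1, TIMP2 and TIMP3 (Timp1, Timp2, Timp3). They were found as the probe sets whose gene symbol in the platform annotation, current or older, is among these 10 names, which gave 20 of 31042 probe sets and 10 of 14217 named genes. Smoc2 and Aspn had been picked for their changes on these same arrays, so the values of these 2 genes are given as a description with no test. The other 8 were tested, each on its brightest probe set, judged by the mean of the 36 arrays. They too were chosen with earlier results of these data known. Their counts beside the share of all probe sets are therefore description and no test of enrichment. On mean level their probe sets lay at percentiles 83.34 to 99.17 of all probe sets, except Mmp2 at 41.3. Levels are log2 of the deposited intensity, differences are log2 with the first-named group minus the second, and a call is a limma adjusted p under 0.05 over all 31042 probe sets.

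Granulosa cells, which surround the oocyte and make estradiol, came from Sprague Dawley rats that were immature (21 to 27 days of age), and were released from the follicles by needle puncture. In all groups 24 h of culture in 5% serum came first. Serum was then withdrawn, and every group received androstenedione, the substrate of aromatase, at 0.1 µM in the series' design text, whereas the sample descriptions give 0.1 M. Treatment lasted 48 h. The groups were FSH at 3 ng/ml with 0, 1, 5 or 10 µM HPTE, cAMP at 1 mM with 0, 1, 5 or 10 µM HPTE, and basal cells without either stimulus with 0, 1, 5 or 10 µM HPTE, 3 arrays each and 36 in all. HPTE is a hydroxylated metabolite of the pesticide methoxychlor. The series text gives treatment in triplicate but not whether these were separate animals, pools or wells, and each p-value rests on the spread between samples within groups, pooled over all 12 groups by limma, which may be technical. The form of cAMP is not given.

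Matrix glycoproteins such as fibronectin and osteopontin bind integrins, the receptors through which a cell holds on to its surroundings. SPARC, SMOC2 and asporin sit in the matrix and modulate how cells, growth factors and collagen interact. Lysyl oxidase cross-links collagen and elastin, MMP2 degrades basement membrane collagen, and the TIMPs block metalloproteinases. In the ovary the matrix is rebuilt as a follicle grows, ruptures and turns into a corpus luteum. FSH acts on granulosa cells through a membrane receptor that raises cAMP, so cAMP given to the medium is a stimulus downstream of that receptor.

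Promoter windows from RefSeq (GRCr8) were matched for 6 of the 10 genes: Spp1, Sparc, Aspn, Timp1, Timp2 and Timp3. Each window held 300 bases, 250 before and 50 after the start, and 6 motifs were searched on both strands. Only 1 window per gene was used. The starts for Spp1, Timp1 and Aspn lie inside the annotated genes, whose 5′ ends are at chr14:5620695, chrX:3772578 and chr17:15310567. Sequence before those ends was not searched for Spp1 and Timp1. These were the cAMP response element TGACGTCA, its shorter variant TGACG, which is contained in the full element, the AP-1 site TGANTCA, the palindromic estrogen response element, the SF-1 site CAAGGTCA and the SMAD box GTCTAGAC. Of all 33469 rat promoter windows, 1.83% held the full cAMP element, 21.2% the short site, 7.33% the AP-1 site, 0.0269% the estrogen element, 1.52% the SF-1 site and 0.197% the SMAD box. In the 6 windows the only matches were to the short site, at -215 in Timp1 and at -179, on the other strand, in Timp2. The 250 bases before the start are printed for 3 genes that moved under both stimuli, Timp3 upward and Spp1 and Timp2 downward, all on the minus strand and read 5′ to 3′. The capitals in Timp2 mark the short site, which reads CGTCA on this strand. The positions are chr14:5619805-5620054 for Spp1, chr10:104089215-104089464 for Timp2 and chr7:19459559-19459808 for Timp3.
Spp1: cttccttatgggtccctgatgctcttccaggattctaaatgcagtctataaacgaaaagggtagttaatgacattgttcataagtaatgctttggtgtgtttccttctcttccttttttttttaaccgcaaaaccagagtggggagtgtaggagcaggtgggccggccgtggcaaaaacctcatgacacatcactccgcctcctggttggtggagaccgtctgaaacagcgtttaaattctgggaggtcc
Timp2: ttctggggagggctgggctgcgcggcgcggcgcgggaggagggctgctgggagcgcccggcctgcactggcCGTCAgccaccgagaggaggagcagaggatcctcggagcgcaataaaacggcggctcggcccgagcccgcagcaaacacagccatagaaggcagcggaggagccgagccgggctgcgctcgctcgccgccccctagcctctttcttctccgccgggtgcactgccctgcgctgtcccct
Timp3: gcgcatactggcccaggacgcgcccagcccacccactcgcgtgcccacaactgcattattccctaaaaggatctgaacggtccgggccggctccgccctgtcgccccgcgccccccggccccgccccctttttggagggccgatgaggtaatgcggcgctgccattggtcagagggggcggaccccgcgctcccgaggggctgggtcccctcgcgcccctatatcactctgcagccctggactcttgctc
The windows differed in base composition, at 48.7% G and C for Spp1, 70.3% for Timp2 and 68.7% for Timp3, against a median of 51.7% over all windows.

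The arrays carried granulosa transcripts: all 9 measured granulosa markers lay above the median of all probe sets (6.11), among them the transcription factor Foxl2, whose group means ran between 10.43 and 11.30. Of the markers of other cells, 9 of 13 for macrophages and leukocytes, 6 of 7 for endothelium, 5 of 7 for smooth muscle and pericytes, 5 of 7 for surface epithelium, 2 of 5 for oocytes and 2 of 11 for theca and stroma lay below that median. Arrays numbered 3 stood apart: the Gapdh control probe sets gave a 3′ minus 5′ log2 difference of 0.767 to 1.07, against 1.609 to 2.4 in numbers 1 and 2. Number 3 was the highest of its group in 12 of 12 groups for Spp1, Timp1 and Sparc, in 10 for Aspn and Lox and in 9 for Fn1, and the lowest in 10 for Mmp2. Number 2 of the unexposed FSH and cAMP groups went against their labels in Cyp19a1 (aromatase, which FSH induces). Cyp19a1 stood at 11.49, 7.48 and 11.46 in FSH arrays 1 to 3, against 7.62, 11.01 and 6.46 in cAMP arrays 1 to 3, so the library labelled FSH number 2 resembled the cAMP arrays and the library labelled cAMP number 2 the FSH arrays. These 2 libraries are called the number 2 pair below. Calls of the 8 tested genes that change without the pair, in comparisons that use it, are given without it as well. For the gene lists, counts without the pair are given for some comparisons.

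Without HPTE, both stimuli changed most of the 8 tested genes, and the genes called under both had the same direction. With FSH 6 of the 8 passed, against 8.06% of all probe sets: 1 rose, Timp3 (3.88% of all probe sets), and 5 fell, Fn1, Spp1, Lox, Sparc and Timp2 (4.18%). With cAMP 5 of the 8 passed, against 7.18% of all probe sets: 1 rose, Timp3 (2.69%), and 4 fell, Fn1, Spp1, Sparc and Timp2 (4.49%). Without the number 2 pair 5 passed with FSH and 4 with cAMP, as Sparc was lost from both, beside 2516 and 2269 of 31042 probe sets. These comparisons share the 3 unexposed basal arrays. The median difference of the 8 genes was -1.04 with FSH and -1.03 with cAMP, beside -0.01 and 0.04 over all probe sets. Cell type markers moved as well: of 7 smooth muscle and pericyte markers 2 fell with FSH and 1 with cAMP, with a summed linear intensity of 293.7 to 377.8 in FSH cells (median 324), 304.7 to 403.9 in cAMP cells (median 305) and 500.5 to 1198 in basal cells (median 530.1). Of the 9 granulosa markers 5 rose and 1 fell with FSH and 4 rose and 1 fell with cAMP, and their sums had medians of 30430 in FSH, 25530 in cAMP and 11130 in basal cells. Among 11 theca and stroma markers 2 rose and 1 fell with FSH, and 1 rose and 1 fell with cAMP. Their sums had medians of 7904 in FSH, 5800 in cAMP and 6691 in basal cells. No endothelial, surface epithelium or oocyte marker passed with either stimulus. With 10 µM HPTE in FSH cells 6 of the 9 granulosa markers fell and 1 rose, to a summed median of 15150, while none of the 7 smooth muscle and pericyte markers passed (summed median 411.7). In the same cells 1 of the 11 theca and stroma markers rose and 1 fell (summed median 6225). Of all probe sets 3.95% fell and 4.51% rose there. The part of these cells in the matrix gene results was not tested. In bulk RNA, fewer cells of a type and less RNA per cell cannot be told apart.

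With 5 or 10 µM HPTE none of the 8 genes was called between FSH and basal cells, as for nearly all probe sets of the array. Several of the 8 were still called between cAMP and basal cells. Between FSH and basal cells at the same dose, 1 of 8 passed at 1 µM (Timp3, against 3.03% of all probe sets), 0 at 5 µM (0.00322%) and 0 at 10 µM (0%). At 5 and 10 µM, 0 and 0 of the 8 reached an unadjusted p under 0.05 in limma. The 95% interval of the FSH minus basal difference at 10 µM was -0.77 to 1.14 for Fn1, -1.16 to 1.05 for Spp1 and -0.98 to 0.74 for Lox. Between cAMP and basal cells, 6 of 8 passed at 1 µM (8.71%), 6 at 5 µM (8.08%) and 4 at 10 µM (6.18%). At 10 µM Timp1, Timp2, Timp3 and Sparc did not pass between these cells. The comparisons at 1, 5 and 10 µM use no arrays of the unexposed groups.

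**Figure D1:**
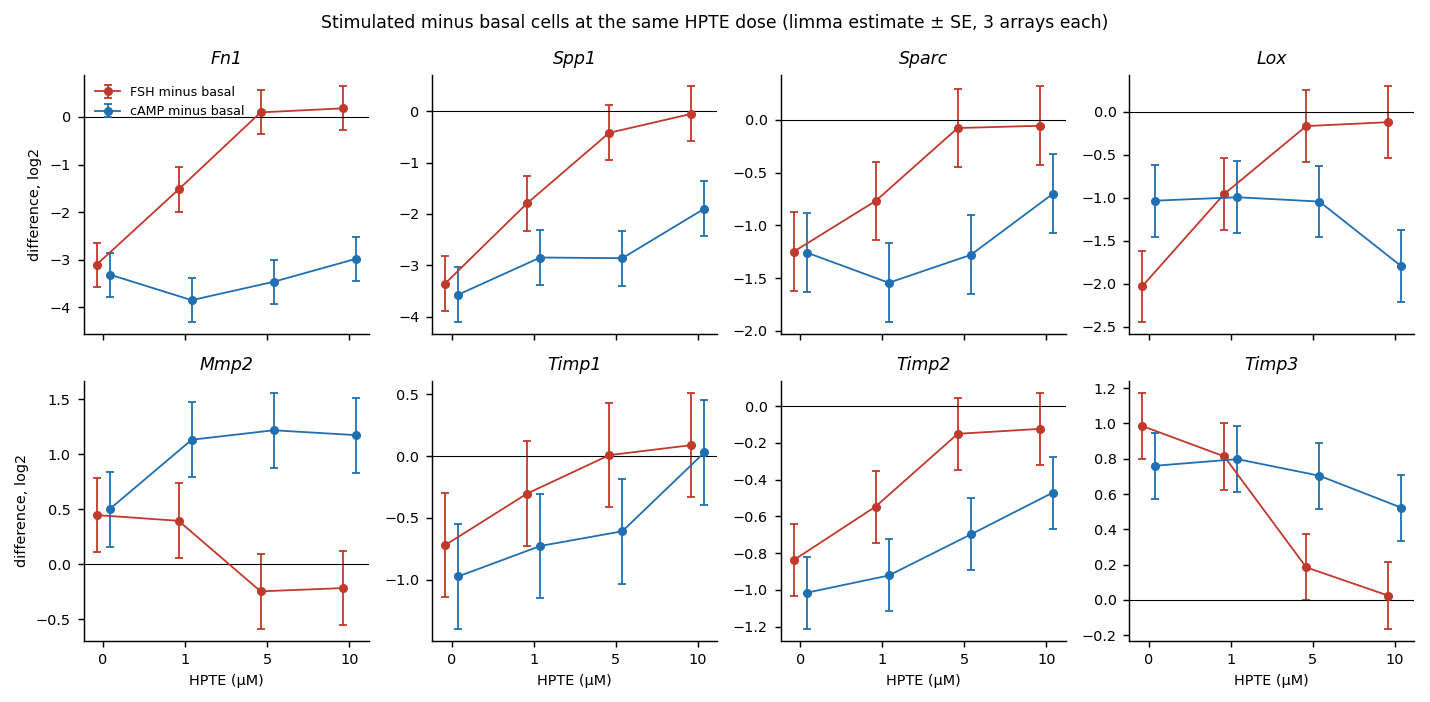
Difference in log2 level between stimulated and basal cells at the same HPTE dose (x axis, 0 to 10 µM, equally spaced) for the 8 tested genes; points are limma estimates from 3 arrays against 3, bars their standard errors, FSH in red and cAMP in blue. At 10 µM the FSH differences lie between -0.22 (Mmp2) and 0.18 (Fn1), while the cAMP differences of Fn1 and Spp1 are -2.98 and -1.90 and that of Timp1 is 0.03.

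Measured against the same stimulus without HPTE, calls were made in FSH cells in the fit without array number. With FSH, 0 of 8 genes passed at 1 µM (against 0.00644% of all probe sets; 2 at an unadjusted p under 0.05 in limma), 6 at 5 µM (6.54%) and 5 at 10 µM (8.45%). At 10 µM 4 rose, Fn1, Spp1, Lox and Timp2 (4.51% of all probe sets), and 1 fell, Timp3 (3.95%). At 5 µM 5 passed without the number 2 pair, and at 10 µM 5, beside 2171 and 2570 of all probe sets. With cAMP none passed at 1 µM (0%), 5 µM (0.00322%) or 10 µM (1.69%), and 0, 0 and 5 reached an unadjusted p under 0.05 in limma. In basal cells none passed at 1 µM (0%), 5 µM (0.0129%) or 10 µM (1.02%), and 0, 0 and 0 reached an unadjusted p under 0.05. The difference between these effects was tested as an interaction. At 10 µM the effect in FSH cells differed from that in basal cells for 2 of 8 genes (2.17% of all probe sets) and from that in cAMP cells for 2 (1.88%), whereas the effect in cAMP cells differed from that in basal cells for 0 (0.129%; 1 at an unadjusted p under 0.05 in limma). At 5 µM these counts were 2 for FSH against basal cells (1.53%) and 0 for cAMP against basal cells (0%; 0 at an unadjusted p under 0.05 in limma). The HPTE effects with FSH and the FSH effect at 0 µM share the unexposed FSH arrays. With array number fitted as a replicate block, tested genes passed with 10 µM HPTE in cAMP cells and in the cAMP interaction too. More of them passed in the interaction with FSH against basal cells. All probe sets called with 10 µM HPTE in cAMP cells then rose from 525 to 1810. The counts of tested genes are in the closing section.

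**Figure D2:**
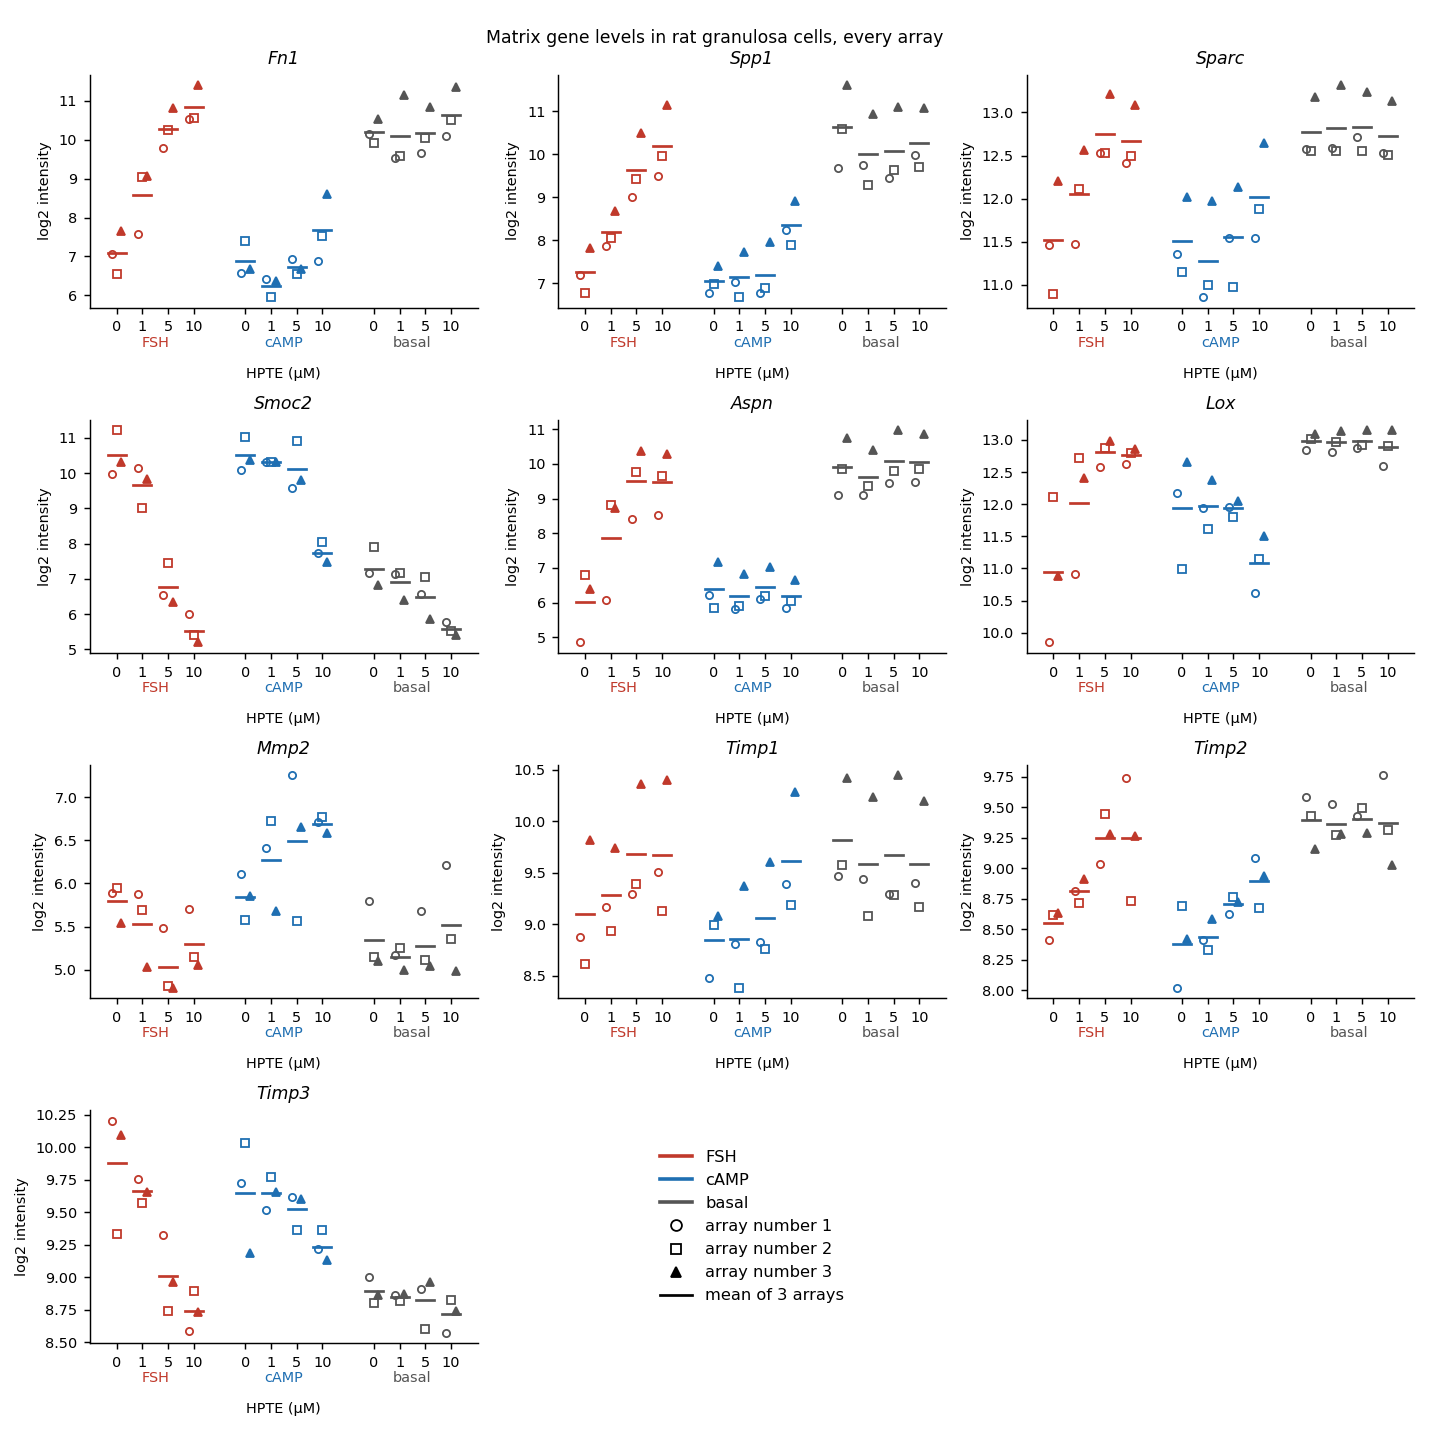
Log2 intensity of the 10 genes on every array, by stimulus (FSH red, cAMP blue, basal grey) and HPTE dose in µM on the x axis; symbols mark the array number and lines the mean of 3 arrays. Fn1 climbs with dose in the FSH panel to 10.53, 10.56 and 11.41 at 10 µM, and Smoc2 runs the other way.

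Fibronectin had the largest difference of the 8 tested genes between FSH cells with and without 10 µM HPTE. Fn1 stood at 7.07, 6.54 and 7.66 in FSH arrays 1 to 3 without HPTE, 7.59, 9.05 and 9.07 at 1 µM, 9.78, 10.24 and 10.83 at 5 µM and 10.53, 10.56 and 11.41 at 10 µM. The cAMP cells gave 6.57, 7.39 and 6.69 without HPTE, 6.42, 5.95 and 6.36 at 1 µM, 6.94, 6.55 and 6.69 at 5 µM and 6.87, 7.53 and 8.61 at 10 µM. Basal cells gave 10.14, 9.91 and 10.54 without HPTE, 9.54, 9.59 and 11.15 at 1 µM, 9.67, 10.05 and 10.85 at 5 µM and 10.10, 10.51 and 11.35 at 10 µM. Every FSH array at 5 and 10 µM lay above every FSH array without HPTE and within or just above the range of basal arrays, and every cAMP array lay below every basal array.

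Fn1 rose 9.16-fold with 5 µM HPTE in FSH cells (3.20 ± 0.46, adjusted p = 3.12e-05) and 13.4-fold with 10 µM (3.74 ± 0.46, adjusted p = 1.92e-06). With 10 µM in cAMP cells the difference was 0.79 ± 0.46 (adjusted p = 0.702) and in basal cells 0.46 ± 0.46 (adjusted p = 1). Fn1 without the number 2 pair rose by 2.92 at 5 µM (adjusted p = 0.00035) and 3.47 at 10 µM (adjusted p = 3e-05) in FSH cells. The rise in FSH cells exceeded that in basal cells by 3.29 ± 0.65 at 10 µM (adjusted p = 0.00452; 3.01, adjusted p = 0.0103, without the pair) and by 3.20 ± 0.65 at 5 µM (adjusted p = 0.00742), called with each array left out in turn. It exceeded the change in cAMP cells by 2.96 ± 0.65 at 10 µM (adjusted p = 0.0112). That last call was lost without cAMP number 1 at 10 µM (2.56, adjusted p = 0.0545) and without the number 2 pair (2.43, adjusted p = 0.0625).

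Set in order of mean level, the Fn1 groups formed a high block and a low block with 1 group between. The high block ran FSH at 10 µM (10.83 ± 0.50, SD, n = 3), basal at 10 µM (10.65 ± 0.64), FSH at 5 µM (10.29 ± 0.53), basal at 0 µM (10.20 ± 0.32), basal at 5 µM (10.19 ± 0.60) and basal at 1 µM (10.10 ± 0.92), and neighbours within it differed by less than their SDs. FSH at 1 µM followed at 8.57 ± 0.85. The low block held cAMP at 10 µM (7.67 ± 0.88), FSH at 0 µM (7.09 ± 0.56), cAMP at 0 µM (6.88 ± 0.44), cAMP at 5 µM (6.72 ± 0.20) and cAMP at 1 µM (6.24 ± 0.26), of which the last differed from its neighbour by more than either SD. At 1 µM, where FSH cells lay between, the difference from basal cells was -1.52 ± 0.46 (adjusted p = 0.0761; called without FSH number 2, at -1.77 with adjusted p = 0.0442) and that from cAMP cells 2.33 ± 0.46 (adjusted p = 0.0146). The call between FSH and cAMP cells at 1 µM was lost without FSH numbers 2 or 3 or cAMP numbers 2 or 3 (2.08 to 2.38, adjusted p = 0.0856 to 0.137). At 5 and 10 µM FSH cells held more Fn1 than cAMP cells by 3.56 ± 0.46 (adjusted p = 7.01e-06) and 3.16 ± 0.46 (adjusted p = 3.49e-05).

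Osteopontin, a secreted phosphoprotein that binds integrins and CD44, followed fibronectin in FSH cells. Spp1 stood at 7.19, 6.79 and 7.82 in FSH cells without HPTE, 7.87, 8.05 and 8.68 at 1 µM, 9.01, 9.42 and 10.50 at 5 µM and 9.50, 9.95 and 11.14 at 10 µM. Osteopontin in cAMP cells stood at 6.77, 6.98 and 7.40 without HPTE, 7.02, 6.68 and 7.74 at 1 µM, 6.76, 6.89 and 7.96 at 5 µM and 8.24, 7.90 and 8.91 at 10 µM. Basal arrays gave 9.68, 10.58 and 11.61 without HPTE, 9.74, 9.30 and 10.95 at 1 µM, 9.45, 9.65 and 11.10 at 5 µM and 9.98, 9.71 and 11.07 at 10 µM. FSH arrays without HPTE and at 5 µM did not overlap, and each cAMP array at 10 µM lay above each unexposed cAMP array while staying below all basal arrays.

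With 5 µM HPTE Spp1 rose 5.2-fold in FSH cells (2.38 ± 0.54, adjusted p = 0.00448), and with 10 µM 7.63-fold (2.93 ± 0.54, adjusted p = 0.00039). Leaving the number 2 pair out, these rises were 2.14 (adjusted p = 0.0305) and 2.69 (adjusted p = 0.00419). In cAMP cells 10 µM gave 1.30 ± 0.54 (adjusted p = 0.369), which did not pass in the fit without array number, and in basal cells -0.37 ± 0.54 (adjusted p = 1). The effect in FSH cells exceeded that in basal cells by 3.30 ± 0.76 at 10 µM (adjusted p = 0.0152), a call lost without FSH number 3 at 10 µM, basal number 3 at 0 µM or basal number 2 at 10 µM (2.81 to 3.03, adjusted p = 0.0561 to 0.0674). It exceeded that in cAMP cells by 1.63 ± 0.76 at 10 µM, which did not pass (adjusted p = 0.495). The excess over basal cells at 5 µM was 2.94 ± 0.76 (adjusted p = 0.0433), lost without FSH numbers 1 or 2 at 0 µM, FSH numbers 2 or 3 at 5 µM, basal numbers 2 or 3 at 0 µM or basal numbers 1 or 2 at 5 µM (2.44 to 3.05, adjusted p = 0.0754 to 0.158) and without the number 2 pair (2.69, adjusted p = 0.0869). The cAMP minus basal difference of Spp1 was -2.85 ± 0.54 at 1 µM (adjusted p = 0.000481), -2.86 ± 0.54 at 5 µM (adjusted p = 0.000474) and -1.90 ± 0.54 at 10 µM (adjusted p = 0.0287). The call at 10 µM was lost without cAMP numbers 1 or 2 or basal numbers 1 or 3 (-1.49 to -2.04, adjusted p = 0.0534 to 0.164). FSH cells held more Spp1 than cAMP cells by 2.44 ± 0.54 at 5 µM (adjusted p = 0.00376) and 1.85 ± 0.54 at 10 µM (adjusted p = 0.0417), the second lost without FSH numbers 2 or 3 or cAMP numbers 1 or 2 (1.37 to 1.97, adjusted p = 0.0792 to 0.319). FSH minus basal at 1 µM was -1.79 ± 0.54 (adjusted p = 0.0693) and passed without basal number 2 (-2.14, adjusted p = 0.049).

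Macrophages also make Spp1 and Fn1. Without HPTE the summed linear intensity of the 13 macrophage and leukocyte markers had lower medians under both stimuli than in basal cells, with overlapping ranges. The sum was 694.2 to 2024 in FSH cells without HPTE (median 1087), 754.7 to 1462 in cAMP cells without HPTE (median 820.8) and 1124 to 2673 in basal cells without HPTE (median 1671). With 10 µM HPTE it was 1417 to 3501 in FSH cells (median 1562), 792.6 to 1272 in cAMP cells (median 913.5) and 1276 to 2933 in basal cells (median 1819). In FSH cells the sum was 1086 to 2223 at 1 µM (median 1701) and 1293 to 2511 at 5 µM (median 2195). Of the 13 markers 4 lay above the median of all probe sets: lysozyme (Lyz2, group means 6.11 to 9.85), Cd14 (6.77 to 8.28), Laptm5 (7.03 to 7.68) and Cd68 (5.75 to 7.54). Among the 9 below it, Csf1r, Itgam, Adgre1 and Ptprc stayed under the median in every group (group means 4.63 to 5.12, 4.14 to 4.41, 4.52 to 5.91 and 4.65 to 5.72). Of the 13 markers 1 passed in FSH against basal cells without HPTE, beside 8.06% of all probe sets. This was the lipopolysaccharide co-receptor Cd14 (-1.51 ± 0.25, adjusted p = 0.00013), which rose with 10 µM HPTE in FSH cells (1.43 ± 0.25, adjusted p = 0.000242). The part of such cells in the Spp1 and Fn1 results was not tested.

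SPARC, a collagen-binding matricellular protein, followed fibronectin on a narrower scale and from a high level. In FSH cells Sparc stood at 11.47, 10.89 and 12.20 without HPTE, 11.48, 12.11 and 12.56 at 1 µM, 12.53, 12.53 and 13.21 at 5 µM and 12.42, 12.50 and 13.09 at 10 µM. The cAMP arrays gave 11.36, 11.15 and 12.02 without HPTE, 10.86, 11.0002 and 11.97 at 1 µM, 11.54, 10.98 and 12.13 at 5 µM and 11.54, 11.88 and 12.64 at 10 µM, and all basal arrays lay between 12.50 and 13.32. Every FSH array without HPTE lay below every basal array, and no FSH array at 5 or 10 µM lay below 12.42.

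Sparc was lower in FSH than in basal cells without HPTE (-1.25 ± 0.37, 2.38-fold, adjusted p = 0.0336) and lower in cAMP than in basal cells (-1.26 ± 0.37, 2.39-fold, adjusted p = 0.0356). The FSH call was lost without FSH numbers 1 or 2 or basal numbers 1, 2 or 3 (-0.94 to -1.36, adjusted p = 0.0563 to 0.219), and the cAMP call without cAMP numbers 1 or 2 or basal numbers 1, 2 or 3 (-1.05 to -1.36, adjusted p = 0.0593 to 0.179). Without the number 2 pair the differences were -0.94 (adjusted p = 0.216) and -1.08 (adjusted p = 0.118). With numbers 1 and 2 alone they were -1.39 (adjusted p = 0.000908) and -1.31 (adjusted p = 0.00141). With 5 µM HPTE in FSH cells Sparc rose by 1.24 ± 0.37 (adjusted p = 0.0429), a call lost without FSH numbers 1 or 2 at 0 µM or FSH numbers 1, 2 or 3 at 5 µM (0.92 to 1.35, adjusted p = 0.0627 to 0.253) and without the pair (0.92, adjusted p = 0.249). With 10 µM the difference was 1.15 ± 0.37 (adjusted p = 0.0549), called without FSH number 3 at 0 µM (1.49, adjusted p = 0.0202). The cAMP minus basal difference was -1.54 ± 0.37 at 1 µM (adjusted p = 0.00629; lost without cAMP number 1 or basal number 3, at -1.30 to -1.34 with adjusted p = 0.0504 to 0.0564), -1.28 ± 0.37 at 5 µM (adjusted p = 0.0292; lost without cAMP numbers 1 or 2 or basal numbers 1 or 3, at -0.99 to -1.34 with adjusted p = 0.0605 to 0.19) and -0.70 ± 0.37 at 10 µM (adjusted p = 0.427). FSH minus cAMP at 5 µM was 1.20 ± 0.37 (adjusted p = 0.0576) and passed without cAMP number 3 (1.49, adjusted p = 0.0316). The second Sparc probe set gave -1.93 ± 0.73 for FSH against basal cells without HPTE (adjusted p = 0.124).

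Lysyl oxidase had a higher mean in FSH cells and a lower mean in cAMP cells at 10 than at 0 µM HPTE. In FSH cells Lox stood at 9.85, 12.11 and 10.88 without HPTE, 10.92, 12.71 and 12.41 at 1 µM, 12.58, 12.87 and 12.99 at 5 µM and 12.63, 12.80 and 12.86 at 10 µM. With cAMP it stood at 12.18, 10.995 and 12.66 without HPTE, 11.95, 11.61 and 12.37 at 1 µM, 11.95, 11.81 and 12.05 at 5 µM and 10.61, 11.15 and 11.50 at 10 µM. All basal arrays lay between 12.60 and 13.15. Of the 6 FSH arrays at 5 and 10 µM, all but number 1 at 5 µM lay within the basal range, and the cAMP arrays at 10 µM lay below every cAMP array except number 2 without HPTE, 1 of the arrays that went against its label.

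Lox rose 3.64-fold with 5 µM HPTE in FSH cells (1.86 ± 0.42, adjusted p = 0.00409) and 3.52-fold with 10 µM (1.81 ± 0.42, adjusted p = 0.0041). Both calls were lost without FSH number 1 at 0 µM (1.31, adjusted p = 0.059, and 1.26, adjusted p = 0.0615) and grew without the number 2 pair to 2.44 (adjusted p = 3.61e-05) and 2.40 (adjusted p = 2.77e-05). In cAMP cells 10 µM gave -0.86 ± 0.42 (adjusted p = 0.53), and -1.33 (adjusted p = 0.0384) without the pair. The effect in FSH cells exceeded that in cAMP cells by 2.67 ± 0.59 (adjusted p = 0.0109), and by 3.73 (adjusted p = 3.87e-05) without the pair. Against basal cells the interaction with FSH was 1.91 ± 0.59 (adjusted p = 0.0983), and 2.49 (adjusted p = 0.00207) without the pair; it also passed without FSH number 2 at 0 µM (2.49, adjusted p = 0.00785), and at 5 µM without FSH number 2 at 0 µM (2.44, adjusted p = 0.012). At 5 µM without the pair it was 2.44 (adjusted p = 0.0035), against 1.86 ± 0.59 (adjusted p = 0.138) with it.

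At 0 µM Lox was 4.09-fold lower in FSH than in basal cells (-2.03 ± 0.42, adjusted p = 0.00134), while cAMP against basal cells gave -1.04 ± 0.42 (adjusted p = 0.17). FSH against cAMP cells at 0 µM gave -0.996 ± 0.42 (adjusted p = 1), and none of the 8 genes passed there (0% of all probe sets; 1 of 8, Lox, at an unadjusted p under 0.05 in limma). Without the number 2 pair it was -2.05 (adjusted p = 0.0025), Timp3 also passed at 0.69 (adjusted p = 0.0315), and 680 probe sets were called. At 10 µM the cAMP minus basal difference of Lox was -1.80 ± 0.42 (adjusted p = 0.00559; lost without cAMP number 1, at -1.56 with adjusted p = 0.0508). Lox was higher in FSH than in cAMP cells there by 1.67 ± 0.42 (adjusted p = 0.0127; lost without FSH number 3 or cAMP number 1, at 1.44 to 1.63 with adjusted p = 0.0571 to 0.101). The second Lox probe set gave -2.41 ± 0.44 for FSH against basal cells at 0 µM (adjusted p = 0.000411).

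**Figure D3:**
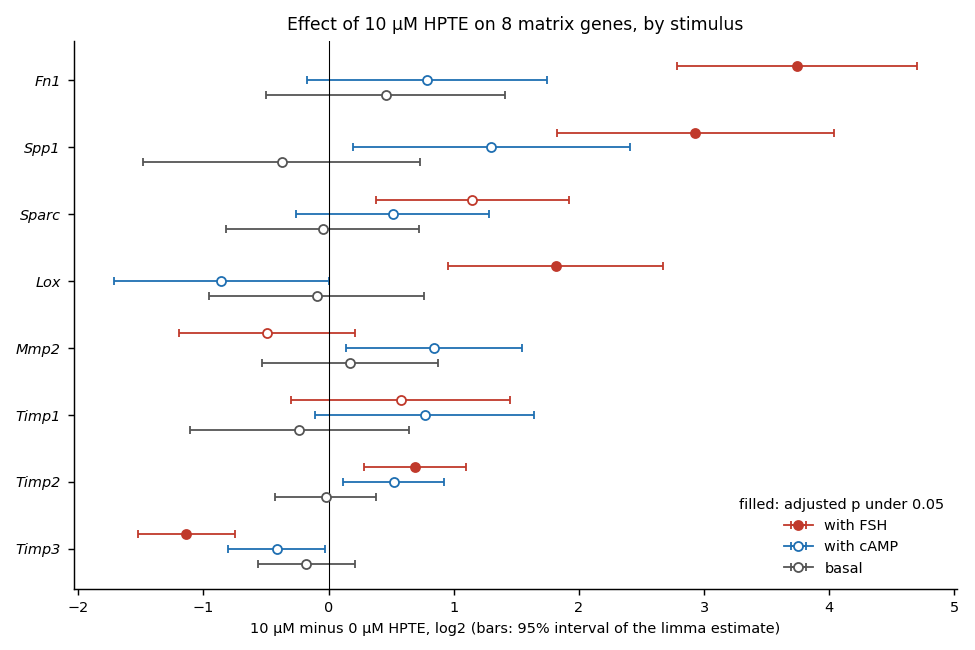
Log2 difference between 10 and 0 µM HPTE for the 8 tested genes in FSH (red), cAMP (blue) and basal cells (grey), 3 arrays against 3; bars are 95% intervals of the limma estimate and filled points have an adjusted p under 0.05. The fit is that without array number. The 5 filled points are all in FSH cells, and Lox is at 1.81 with FSH and -0.86 with cAMP. With array number fitted as a replicate block, tested genes passed in cAMP cells too.

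TIMP3, the inhibitor that stays bound to the matrix, ran opposite to fibronectin in FSH cells. Timp3 stood at 10.21, 9.33 and 10.09 in FSH cells without HPTE, 9.76, 9.58 and 9.65 at 1 µM, 9.33, 8.74 and 8.96 at 5 µM and 8.59, 8.89 and 8.73 at 10 µM. The cAMP cells stood at 9.73, 10.03 and 9.19 without HPTE, 9.51, 9.77 and 9.65 at 1 µM, 9.62, 9.36 and 9.60 at 5 µM and 9.22, 9.36 and 9.13 at 10 µM, and basal arrays lay between 8.57 and 9.001 at all doses. All cAMP arrays stayed above all basal arrays, while FSH arrays at 10 µM lay within the basal range. With HPTE in FSH cells Timp3 fell 1.82-fold at 5 µM (-0.87 ± 0.19, adjusted p = 0.00308) and 2.2-fold at 10 µM (-1.14 ± 0.19, adjusted p = 0.000106). With the number 2 pair left out, these falls were -1.14 (adjusted p = 2.54e-05) and -1.41 (adjusted p = 8.79e-07). In cAMP cells 10 µM gave -0.42 ± 0.19 (adjusted p = 0.462), and the difference between both effects was -0.72 ± 0.27 (adjusted p = 0.237; -1.19, adjusted p = 0.0017, without the number 2 pair). Against basal cells the interaction was -0.96 ± 0.27 (adjusted p = 0.0523; -1.24, adjusted p = 0.000888, without the pair). Leaving out FSH number 2 at 0 µM alone also gave calls for both at 10 µM (-0.997 and -1.24, adjusted p = 0.0171 and 0.00311) and for FSH against basal at 5 µM (-1.07, adjusted p = 0.0127), where it was -1.07 (adjusted p = 0.00439) without the pair.

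Against basal cells Timp3 was higher with FSH at 1 µM by 0.81 ± 0.19 (adjusted p = 0.0105; 0.77, adjusted p = 0.0857, without FSH number 1) and differed by 0.02 ± 0.19 at 10 µM (95% interval -0.36 to 0.41). With cAMP it was higher at 0 µM by 0.76 ± 0.19 (adjusted p = 0.00867; 0.57, adjusted p = 0.0845, without cAMP number 2 alone), at 1 µM by 0.80 ± 0.19 (adjusted p = 0.00487) and at 5 µM by 0.70 ± 0.19 (adjusted p = 0.015; lost without cAMP numbers 1 or 3 or basal number 2, at 0.59 to 0.67 with adjusted p = 0.0621 to 0.103). At 10 µM it gave 0.52 ± 0.19 (adjusted p = 0.118). Of the other 3 Timp3 probe sets, the brighter one gave 1.04 ± 0.20 (adjusted p = 0.00076) for FSH against basal cells at 0 µM, and the dimmer ones, with means of 5.17 and 5.04, gave 0.46 and 0.10.

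TIMP2, which both inhibits and helps to activate MMP2, changed in the direction opposite to TIMP3. In FSH cells Timp2 stood at 8.41, 8.62 and 8.64 without HPTE, 8.81, 8.72 and 8.91 at 1 µM, 9.03, 9.44 and 9.28 at 5 µM and 9.74, 8.73 and 9.26 at 10 µM. Its cAMP arrays gave 8.02, 8.69 and 8.42 without HPTE, 8.41, 8.33 and 8.58 at 1 µM, 8.62, 8.77 and 8.72 at 5 µM and 9.08, 8.67 and 8.93 at 10 µM, against 9.03 to 9.76 in basal arrays. Without HPTE the FSH and cAMP arrays lay below all basal arrays. Against basal cells Timp2 differed by -0.84 ± 0.20 with FSH (adjusted p = 0.00496) and -1.02 ± 0.20 with cAMP (adjusted p = 0.00077), both called with each array left out in turn. With HPTE in FSH cells it rose by 0.70 ± 0.20 at 5 µM (adjusted p = 0.0259) and 0.69 ± 0.20 at 10 µM (adjusted p = 0.0228). The call at 5 µM was lost without FSH numbers 1 or 3 at 0 µM or FSH numbers 2 or 3 at 5 µM (0.60 to 0.74, adjusted p = 0.0566 to 0.141), and that at 10 µM without FSH number 1 at 0 µM or FSH numbers 1 or 3 at 10 µM (0.44 to 0.68, adjusted p = 0.0738 to 0.235). Both rises passed without the number 2 pair, at 0.73 (adjusted p = 0.0373) and 0.72 (adjusted p = 0.0347). In cAMP cells 10 µM gave 0.52 ± 0.20 (adjusted p = 0.282). The cAMP minus basal difference was -0.92 ± 0.20 at 1 µM (adjusted p = 0.00184), -0.70 ± 0.20 at 5 µM (adjusted p = 0.0222; lost without cAMP numbers 1 or 3 or basal numbers 1 or 2, at -0.65 to -0.71 with adjusted p = 0.0588 to 0.0877) and -0.47 ± 0.20 at 10 µM (adjusted p = 0.219). The second Timp2 probe set, with a mean of 4.86, gave -0.11 ± 0.20 for FSH against basal cells at 0 µM (adjusted p = 0.965).

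TIMP1, a soluble inhibitor induced in many tissues by growth factors and gonadotropins, passed in none of the 26 comparisons in the limma fit without array number, and 1 of them had an unadjusted p under 0.05. Timp1 stood at 8.87, 8.61 and 9.82 in FSH cells without HPTE and 9.51, 9.13 and 10.40 at 10 µM. The cAMP arrays held 8.47, 8.995 and 9.08 without HPTE and 9.39, 9.18 and 10.28 at 10 µM, and basal arrays 9.47, 9.58 and 10.42 without HPTE and 9.40, 9.17 and 10.20 at 10 µM. Array number 3 exceeded both others in all 12 groups, and lay 0.89 above their mean on average. The differences at 0 µM were -0.72 ± 0.42 for FSH (adjusted p = 0.475) and -0.97 ± 0.42 for cAMP (adjusted p = 0.224). With numbers 1 and 2 alone they passed, at -0.78 (adjusted p = 0.0218) and -0.79 (adjusted p = 0.0207). Both differences at 0 µM also passed with the array number fitted as a replicate block, with values in the closing section.

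The MMP2 transcript was faint, with a mean level of 5.69 that lay below the median of all probe sets, and was higher in cAMP than in basal cells at each HPTE dose above 0 on the brighter of its 2 probe sets. Mmp2 stood at 5.89, 5.95 and 5.54 in FSH cells without HPTE, 5.88, 5.69 and 5.03 at 1 µM, 5.48, 4.81 and 4.79 at 5 µM and 5.70, 5.14 and 5.06 at 10 µM. For cAMP the arrays gave 6.10, 5.58 and 5.85 without HPTE, 6.41, 6.72 and 5.68 at 1 µM, 7.25, 5.57 and 6.66 at 5 µM and 6.71, 6.78 and 6.59 at 10 µM. Basal arrays lay between 4.99 and 6.21, and at 10 µM each cAMP array lay above each FSH and each basal array. The cAMP minus basal difference of Mmp2 was 1.13 ± 0.34 at 1 µM (adjusted p = 0.033), 1.22 ± 0.34 at 5 µM (adjusted p = 0.0213) and 1.17 ± 0.34 at 10 µM (adjusted p = 0.0341). The call at 1 µM was lost without cAMP numbers 1 or 2 or basal numbers 1, 2 or 3 (0.91 to 1.19, adjusted p = 0.0646 to 0.201), that at 5 µM without cAMP numbers 1 or 3 or basal numbers 2 or 3 (0.84 to 1.13, adjusted p = 0.0866 to 0.195) and that at 10 µM without cAMP numbers 1, 2 or 3 or basal numbers 2 or 3 (0.91 to 1.22, adjusted p = 0.0702 to 0.187). FSH minus cAMP was -1.46 ± 0.34 at 5 µM (adjusted p = 0.00631; lost without cAMP number 1, at -1.08 with adjusted p = 0.0791) and -1.39 ± 0.34 at 10 µM (adjusted p = 0.0109; lost without FSH numbers 2 or 3, at -1.27 to -1.31 with adjusted p = 0.0584 to 0.0724). In all, FSH against cAMP cells passed for 1 of 8 genes at 1 µM (0.409% of all probe sets), 3 at 5 µM (5.59%) and 4 at 10 µM (4.76%). The second Mmp2 probe set, with a mean of 4.86, passed in none of these comparisons: cAMP minus basal was 0.08 at 1 µM (adjusted p = 0.9), 0.07 at 5 µM (adjusted p = 0.901) and -0.14 at 10 µM (adjusted p = 0.83), each ± 0.15. On that probe set FSH minus cAMP was 0.10 at 5 µM (adjusted p = 0.945) and -0.0034 at 10 µM, each ± 0.15.

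SMOC2, a calcium-binding matricellular protein related to SPARC and 1 of the 2 genes picked for its changes, was high under both stimuli. Smoc2 stood at 9.98, 11.21 and 10.32 in FSH cells without HPTE, 10.15, 9.02 and 9.84 at 1 µM, 6.55, 7.46 and 6.33 at 5 µM and 5.99, 5.396 and 5.20 at 10 µM. The cAMP cells held 10.10, 11.03 and 10.37 without HPTE, 10.30, 10.33 and 10.31 at 1 µM, 9.59, 10.92 and 9.80 at 5 µM and 7.72, 8.04 and 7.48 at 10 µM. Basal cells gave 7.16, 7.91 and 6.82 without HPTE, 7.13, 7.18 and 6.41 at 1 µM, 6.57, 7.06 and 5.87 at 5 µM and 5.79, 5.53 and 5.398 at 10 µM. The group means were thus lower at 10 than at 0 µM under each stimulus and in basal cells, with differences of -4.97 with FSH, -2.75 with cAMP and -1.72 in basal cells. The FSH arrays had left the stimulated range by 5 µM, whereas the cAMP arrays at 5 µM still overlapped those without HPTE and at 10 µM lay between 7.48 and 8.04. The other 2 Smoc2 probe sets, with means of 5.73 and 5.70, differed by 0.16 and 0.42 between FSH and basal cells at 0 µM.

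Asporin, a small leucine-rich proteoglycan that binds collagen and TGF-β and the other gene picked for its changes, had the pattern of fibronectin. Aspn stood at 4.86, 6.80 and 6.39 in FSH cells without HPTE, 6.07, 8.82 and 8.73 at 1 µM, 8.41, 9.76 and 10.37 at 5 µM and 8.53, 9.65 and 10.29 at 10 µM. In cAMP cells all arrays lay between 5.83 and 7.17, and in basal cells between 9.10 and 10.97. The 12 cAMP arrays and the 12 basal arrays did not overlap at any dose. FSH array 1 at 1 µM (6.07) lay with the cAMP arrays, and without it the FSH against basal difference at 1 µM was -0.86 in place of -1.76. From 0 to 10 µM HPTE the mean differed by 3.48 with FSH, -0.23 with cAMP and 0.17 in basal cells. The second Aspn probe set gave -4.10 for FSH against basal cells at 0 µM, beside -3.88 for the one used.

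Over the 12 group means, which share the arrays and 1 normalization, r with Fn1 was positive for some of the genes and negative for others. Smoc2 and Aspn had been picked for their changes, and the other genes were chosen with earlier results of these data known. How common such r values are among other genes was not tested, so they are description only. Fn1 had a Pearson r of 0.97 with Spp1, 0.98 with Sparc, 0.97 with Aspn, 0.95 with Timp2, 0.88 with Timp1 and 0.81 with Lox. It had r = -0.90 with Timp3, -0.93 with Smoc2 and -0.82 with Mmp2. Timp3 and Smoc2 had r = 0.97. The genes named next were picked for the highest r among 2040 candidates, so their high values follow in part from that choice. Among 2040 genes whose group means spanned at least 1 on the log2 scale, those most like Fn1 were Wipf1 (0.994), Cpe (0.994) and Myof (0.993), and those most like Spp1 were Lmna (0.992), Tns1 (0.990) and Csrnp1 (0.9895). Sparc was closest to Bgn (0.995), which encodes the matrix proteoglycan biglycan, Actg1 (0.995) and Lgals1 (0.9945), Lox to Lpar4 (0.9745), Arxes1 and Meis1 (0.965 each), and Timp2 to Mmp23 (0.989), Kidins220 (0.988) and Ntan1 (0.988). Timp3 was closest to Armh4 (0.992), Npas2 and Cfap36 (0.991 each), Timp1 to Acsl1 (0.967), Rassf8 (0.966) and Rab3d (0.965), and Mmp2 to Gdpd5 (0.974), Mfsd12 (0.959) and Clmp (0.958). The nearest for Smoc2 were Aif1l (0.990), Armh4 (0.987) and Ppp2r2b (0.984), and for Aspn Crim1, Pdlim3 (0.994 each) and Gadd45b (0.993).

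Of the integrins and other matrix receptors many fell with both stimuli, as did the transcripts of their ligands fibronectin and osteopontin. With FSH 9 of 18 measured members fell and 0 rose (median -0.70), led by the β3 chain Itgb3 (-2.07 ± 0.20, adjusted p = 4.44e-08), the α8 chain Itga8 (-1.93 ± 0.36, adjusted p = 0.00046) and the α3 chain Itga3 (-1.51 ± 0.46, adjusted p = 0.0398). Both Itgb3 and Itga8 are parts of integrins that bind fibronectin or osteopontin. With cAMP 9 of 18 fell and 0 rose (median -0.63), among them Itga8 (-2.47 ± 0.36, adjusted p = 1.94e-05) and Itgb3 (-2.10 ± 0.20, adjusted p = 3.28e-08). With 10 µM HPTE in FSH cells 8 of 18 rose and 0 fell (median 0.68), led by Itgb3 (3.01 ± 0.20, adjusted p = 8.51e-11), Itga8 (1.39 ± 0.36, adjusted p = 0.0116) and the proteoglycan Sdc1 (1.24 ± 0.13, adjusted p = 2.09e-07). In cAMP cells 2 of 18 rose, Itgb3 (2.04 ± 0.20, adjusted p = 3.08e-07) and Sdc1 (0.98 ± 0.13, adjusted p = 3.99e-05). In basal cells 2 rose as well, Itgb3 (1.03 ± 0.20, adjusted p = 0.00421) and the α9 chain Itga9 (0.67 ± 0.15, adjusted p = 0.0166). Without the number 2 pair 7 of 18 fell with FSH, 8 fell with cAMP and 6 rose with 10 µM HPTE in FSH cells, and with numbers 1 and 2 alone these counts were 7, 7 and 7. With numbers 1 and 2 alone 2 rose in cAMP cells and 0 in basal cells. The share of all probe sets that rose with 10 µM was 4.51% in FSH cells, 1.2% in cAMP cells and 0.416% in basal cells. At 0 µM 4.18% of all probe sets fell with FSH and 4.49% with cAMP.

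Of 15 measured genes of the TGF-β pathway, whose ligands are known inducers of matrix genes, 5 fell and 1 rose with FSH (median -0.02). Of all probe sets 4.18% fell and 3.88% rose with FSH, and 4.49% fell and 2.69% rose with cAMP. With 10 µM HPTE 4.51% rose in FSH cells and 1.2% in cAMP cells. The ligand Tgfb3 changed by -2.44 ± 0.26 (adjusted p = 2.28e-07), the latent TGF-β binding protein Ltbp2 by -1.86 ± 0.23 (adjusted p = 2.02e-06) and the ligand Tgfb2 by -1.81 ± 0.30 (adjusted p = 0.000101). The corepressor Tgif1 was the member that rose (0.60 ± 0.18, adjusted p = 0.037), but without the number 2 pair 0 members rose and 5 fell with FSH. With cAMP 5 fell and 2 rose (median -0.03), with Tgfb3 at -2.55 ± 0.26 (adjusted p = 1.28e-07). Without the number 2 pair 4 fell and 1 rose with cAMP. With 10 µM HPTE in FSH cells 3 rose and 0 fell: Tgfb3 (2.42 ± 0.26, adjusted p = 2.1e-07), Tgfb2 (1.55 ± 0.30, adjusted p = 0.000618) and Ltbp2 (1.23 ± 0.23, adjusted p = 0.000459). With 10 µM in cAMP cells Tgfb2 fell (-1.18 ± 0.30, adjusted p = 0.0313; 0.486% of all probe sets fell) and the pseudoreceptor Bambi rose (1.03 ± 0.26, adjusted p = 0.0375), and in basal cells no member passed. Without the number 2 pair 0 members rose and 1 fell in cAMP cells, and with numbers 1 and 2 alone 0 rose and 0 fell there.

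Among 17 other matricellular and leucine-rich genes 3 rose and 4 fell with FSH, beside 3.88% and 4.18% of all probe sets. Without the number 2 pair 2 rose and 3 fell. The largest rise was that of the TGF-β-induced adhesion protein Tgfbi (2.92 ± 0.39, adjusted p = 6.94e-06), and the falls included Bgn (adjusted p = 0.0104) and the follistatin-like protein Fstl1 (-0.89 ± 0.10, adjusted p = 1.19e-06). With 10 µM HPTE in FSH cells 3 rose and 4 fell: Bgn (1.88 ± 0.51, adjusted p = 0.0162) and Fstl1 (0.67 ± 0.10, adjusted p = 5.82e-05) were among those that rose, and Tgfbi (-3.34 ± 0.39, adjusted p = 7.83e-07) was among those that fell. Of all probe sets 4.51% rose and 3.95% fell there, and without the number 2 pair 2 of the 17 rose and 4 fell. In cAMP cells, where 0.486% of all probe sets fell, 2 fell, Tgfbi (-1.99 ± 0.39, adjusted p = 0.00382) and Omd (-1.23 ± 0.29, adjusted p = 0.0203). In basal cells, where 0.602% of all probe sets fell, 1 of these 17 fell, fibromodulin, Fmod (-0.66 ± 0.12, adjusted p = 0.00378). With numbers 1 and 2 alone 0 of the 17 fell there, and without the number 2 pair 2 fell.

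Of 23 proteases and inhibitors beside the 10 genes, 2 fell and 0 rose with FSH, beside 8.06% of all probe sets called: the aggrecanase Adamts5 (-2.40 ± 0.61, adjusted p = 0.0103) and the metalloproteinase Mmp23 (-1.81 ± 0.26, adjusted p = 1.57e-05). With cAMP 2 fell, Mmp23 (-1.93 ± 0.26, adjusted p = 5.82e-06) and the tissue plasminogen activator Plat (-0.77 ± 0.21, adjusted p = 0.0174), and 1 rose, Mmp11 (1.32 ± 0.40, adjusted p = 0.0411), beside 7.18% of all probe sets called. Adamts5 and Mmp23 rose with 10 µM HPTE in FSH cells (Adamts5 2.65 ± 0.61, adjusted p = 0.00412; Mmp23 1.69 ± 0.26, adjusted p = 3.84e-05), and the membrane-anchored inhibitor Reck fell (-0.74 ± 0.16, adjusted p = 0.00186). Of all probe sets 8.45% were called there. Without the number 2 pair 1 of the 23 rose and 2 fell with FSH. In the same setting 2 rose and 2 fell with cAMP, and 2 rose and 2 fell with 10 µM HPTE in FSH cells. In cAMP cells, where 1.2% of all probe sets rose, 1 rose with 10 µM HPTE, Plat (1.48 ± 0.21, adjusted p = 6.29e-05), and 2 rose without the number 2 pair. Of 22 genes of cross-linking and fibre assembly, 2 fell with FSH, the prolyl hydroxylase subunit P4ha3 (-2.22 ± 0.57, adjusted p = 0.0104) and the elastic fibre protein Fbln5 (-1.94 ± 0.32, adjusted p = 0.000112), and 0 rose. With cAMP 4 fell, among them P4ha3 (-2.50 ± 0.57, adjusted p = 0.00385) and Fbln5 (-1.99 ± 0.32, adjusted p = 8.22e-05), and 0 rose. These counts of the 22 genes stand beside 8.06% of all probe sets called with FSH and 7.18% with cAMP. In this group 1 gene fell with FSH and 6 with cAMP without the number 2 pair. No gene of this group passed with 10 µM HPTE in FSH or cAMP cells (limma), though 3 rose in cAMP cells without the number 2 pair, and Fbln5 fell in basal cells (-1.36 ± 0.32, adjusted p = 0.0285). In basal cells 0.602% of all probe sets fell, and with numbers 1 and 2 alone 0 of the 22 genes fell there. Between FSH and basal cells at 10 µM no member of these 5 lists passed, nor did any probe set of the array, where 497 of 31042 reached an unadjusted p under 0.05 in limma.

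**Figure D4:**
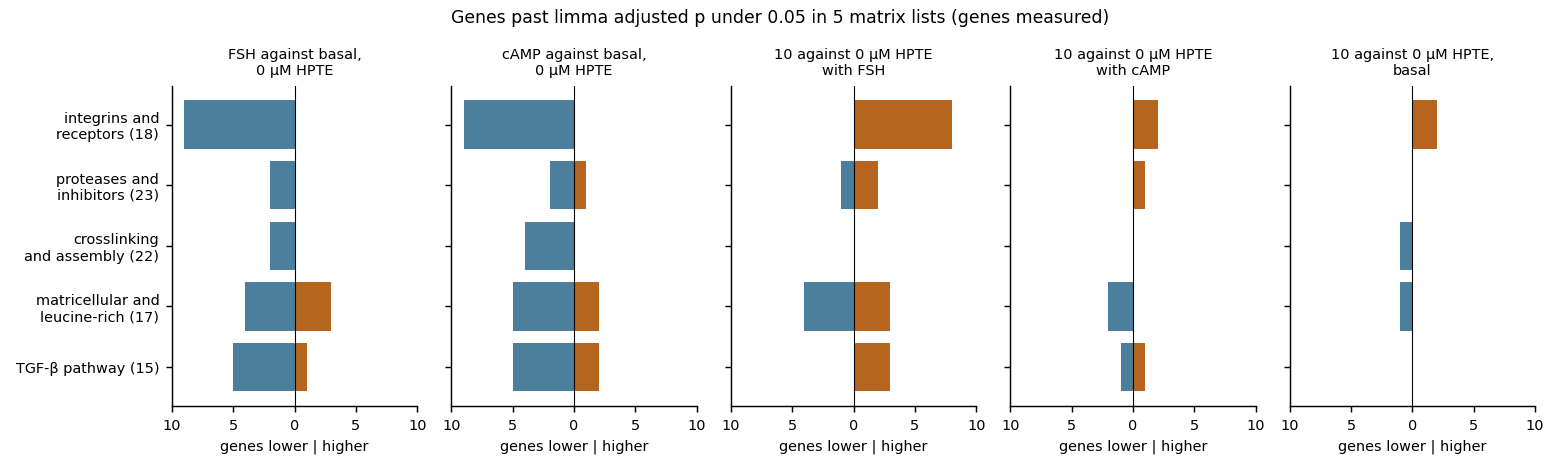
Number of genes with an adjusted p under 0.05 in each of 5 matrix gene lists (measured members in brackets), to the right of zero where higher and to the left where lower, for 5 comparisons. In the integrin list 9 genes are lower with each stimulus and 8 are higher with 10 µM HPTE in FSH cells, against 2 in cAMP and 2 in basal cells.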

How the data were processed

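Gene expression in 36 samples of cultured rat granulosa cells was measured on Affymetrix rat expression arrays, from 40 ng of total RNA per sample. The authors deposited 1 linear intensity per probe set and array, normalized by RMA per the submitters' processing notes; no source used here states its version, and ArrayAssist is named in the series' design text. The log2 of the deposited intensity was used without further scaling; array medians lay between 65.8 and 73.7 in intensity, and signal over background was not given. Of 31099 probe sets 57 controls were left out. Of the other 31042, 20826 had 1 gene symbol, 436 several and 9780 none in the platform annotation, and symbols were updated through RefSeq.

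A model with 12 group means (24 residual degrees of freedom) was fitted to all 31042 probe sets with limma 3.58.1 in R 4.3.3, with Benjamini-Hochberg adjustment in each of 26 comparisons. A gene is represented by its brightest probe set. The members and the gene lists were chosen with earlier results of these data known; from each list up to 3 called genes with the largest rise and 3 with the largest fall could be named, and the 3 genes most like a member were chosen by Pearson's r over group means. Promoters are from RefSeq (GRCr8). On simulated data for FSH against basal at 0 µM (31042 probe sets), 68% of 100 probe sets changed by log2 1 and 96% of 100 changed by log2 2 were recovered, with 5 false calls. The simulated noise was independent between arrays, while same-numbered real arrays deviated together in part. These figures therefore check the code and are not error rates of the real arrays. Alternatives are listed in the closing section.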

Additional observations from a re-analysis of the deposited data

Results flagged for a closer look

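The effect of HPTE differed between stimuli, by the limma interaction term in the fit without array number, for 3 of the 8 tested genes. At 10 µM 2.17% of all probe sets were called for FSH against basal cells and 1.88% for FSH against cAMP cells. At 5 µM 1.53% were called for FSH against basal cells. For Fn1 the 10 µM effect in FSH cells exceeded that in basal cells by 3.29 and that in cAMP cells by 2.96, and the 5 µM effect in FSH cells exceeded that in basal cells by 3.20. For Spp1 the excess in FSH over basal cells was 3.30 at 10 µM and 2.94 at 5 µM. For Lox the excess in FSH over cAMP cells was 2.67 at 10 µM. All are log2 differences of differences over 3 arrays a group; the libraries on which single calls depend are given with each gene in the report. No group has 4 or more arrays, so single arrays were not tested as outliers.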

How the results depend on the processing

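The counts are of the 8 tested genes called. Fitting only the groups compared gave 3 for FSH against basal cells at 0 µM (6 in the fit over all groups), 2 for cAMP against basal cells (5), 2 for 10 µM HPTE with FSH (5) and 1 for the interaction of 10 µM HPTE with FSH against basal (2). The mean of a gene's probe sets gave 3 for cAMP against basal cells. Numbers 1 and 2 alone gave 1 for 10 µM HPTE with cAMP (0), and leaving out number 2 of FSH and cAMP at 0 µM gave 1 there and 4 for the FSH interaction. Same-numbered arrays deviated together in part: of 198 pairs across groups, 189 had a correlation of deviations above 0.1 (lowest -0.124, median 0.51). With the array number as a replicate block, 10 µM HPTE with cAMP gave 4, the FSH interaction 6 and the cAMP interaction 2 (0); with the block and without the number 2 pair, a combination chosen after seeing the data, they gave 5, 6 and 2. The block moved 0 of 53 calls below the threshold and added 33 of 155, among them Timp1 for FSH and cAMP against basal cells at 0 µM (-0.72, adjusted p = 0.000742, and -0.97, adjusted p = 1.77e-05). It gave 4984 probe sets for FSH against basal cells (2502 without it), 4709 for cAMP against basal (2228), 5333 for 10 µM HPTE with FSH (2624), 1810 with cAMP (525) and 1059 in basal cells (316), 2102 for the FSH interaction (674) and 177 for the cAMP interaction (40). Numbers 1 and 2 alone gave 330 for 10 µM with cAMP, 151 in basal cells and 154 for the FSH interaction, and without the number 2 pair 792 with cAMP, 1059 for the FSH interaction and 70 for the cAMP interaction. Counts over all probe sets are not given for the fits of only the groups compared, the mean of a gene's probe sets or single arrays left out.

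Counts of the matrix gene lists without that pair or number 3 were also chosen after seeing the data. With each array left out in turn, the counts were 5 to 6 for FSH against basal cells, 3 to 5 for cAMP against basal cells, 3 to 6 for 10 µM HPTE with FSH, 1 to 4 for the FSH interaction, and 0 for 10 µM HPTE with cAMP, in basal cells and for the cAMP interaction. Of 53 calls, 25 were lost when only the groups compared were fitted, 18 with numbers 1 and 2 alone and 12 with the mean of a gene's probe sets, and without the number 2 pair 5 of 28 were lost and 8 of 84 added. Leaving out each array in turn lost 83 of 354 calls. Quantile normalization lost 0 of 53 calls and added 3, log2 of the intensity plus 16 lost 1 and added 1, a trended robust variance changed none, and a filter on mean level lost 0 of 48. No called difference changed sign under these alternatives. The cause of these changes was not tested. The number of arrays, 3 a group, limits the precision, and Mmp2 lies below the median signal of the arrays.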
